A study of Mus musculus with 11 samples.

Results

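The proteasome genes described here were the 47 of 14604 genes of the table whose symbols begin with Psma, Psmb, Psmc, Psmd, Psme, Psmf or Psmg and end in a number. They were chosen by symbol and not by any measured value, and 5 of them (Psmb8, Psmb9, Psmb10, Psme1 and Psme2) form the immunoproteasome set. Regulatory T cells (Tregs) were sorted as live CD4+GITR+CD25+ cells from implanted MC38 tumors, a mouse colon adenocarcinoma line, and from the spleens of tumor-bearing mice, and their total RNA was sequenced after removal of ribosomal RNA. The 11 libraries came from 2 genotypes. WT mice carried floxed alleles (CD177flox/flox) without Cre and gave 3 spleen and 3 tumor libraries, and KO mice carried the same floxed alleles together with FOXP3-CreYFP and gave 3 spleen and 2 tumor libraries. The KO label places Cre under Foxp3, every mouse of both genotypes carried floxed alleles and an MC38 tumor, and whether each library came from 1 animal was not given in the sources used here, so the p-values measure the spread between these libraries. An age is stated for the C57BL/6 mice that received MC38 cells in the tumor models of the study, but not for these floxed mice. Spleens were taken from the mice that bore the tumors, but the labels do not tie a spleen library to a tumor library, and the tests treat the libraries as independent. Cd177 itself was not analysed here, so the deletion was not checked in the libraries labelled KO.

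The proteasome degrades proteins that carry ubiquitin chains. Its 20S core is a barrel of outer alpha rings and inner beta rings, and the proteolytic sites lie in the beta subunits encoded by Psmb5, Psmb6 and Psmb7. The 19S cap, built from a base with AAA ATPases and a lid, binds, unfolds and deubiquitinates substrates. Interferon-gamma induces the alternative catalytic subunits encoded by Psmb8, Psmb9 and Psmb10, which take the places of Psmb5, Psmb6 and Psmb7 products in the immunoproteasome, and the PA28 activator encoded by Psme1 and Psme2. Lymphocytes and myeloid cells are known to carry much immunoproteasome.

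Values are given as log2(n + 1), in which n is a gene's value derived from estimated counts. The scaling of n was not given in the sources used here. A level is such a value in 1 library, and a difference is the mean over tumor libraries minus the mean over spleen libraries, unless another contrast is named. The summed n ranged from 712832 to 844331 in the 6 spleen libraries and from 1103160 to 1304550 in the 5 tumor libraries, and the processed pseudogene Gm12896 took 31.4 to 42.4% of it. The median difference over all 13897 genes tested was 0.08. The Treg and T cell markers (Foxp3, Il2ra, Tnfrsf18, Cd3e, Cd4 and Ctla4) were present in every library. Their summed level was 10.0 to 10.2 in spleen and 9.82 to 10.4 in tumor. Of these 6 markers 2 were higher in tumor, with differences of 1.08 for Tnfrsf18 and 0.57 for Ctla4. The 3 lower ones were Foxp3 (-0.85), Cd3e (-0.62) and Cd4 (-0.42) (limma, adjusted p = 0.0036, 0.00025 and 0.0035). All 12 myeloid markers were higher in tumor, with a summed level of 8.09 to 8.98 in spleen and 13.6 to 14.1 in tumor, and none of them was at 0 in either tissue. Of 5 measured fibroblast markers 4 were higher in tumor, with a summed level of 1.80 to 2.14 in spleen and 8.84 to 9.94 in tumor. Of 4 measured B cell markers 3 were lower in tumor, with a summed level of 4.19 to 5.76 in spleen and 3.58 to 4.52 in tumor. The 6 CD8 T and NK markers, of which 3 were higher and 1 lower in tumor, had a summed level of 4.20 to 5.59 in spleen and 5.81 to 7.61 in tumor, and the 4 measured tumor epithelium markers, of which 3 were tested with 1 higher and 1 lower in tumor, had one of 3.34 to 4.02 in spleen and 4.22 to 4.97 in tumor. The summed levels of the myeloid, fibroblast, CD8 T and NK and epithelium lists did not overlap between tumor and spleen libraries, whereas those of the B cell list and of the Treg and T cell list did. These levels stand beside each contrast of tumor and spleen below, and their part in the results was not tested. In such bulk samples fewer cells of a type and less RNA per cell cannot be told apart.

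The start-site windows of 2 constitutive catalytic genes and of their 2 inducible counterparts are shown. The other catalytic pair, Psmb7 and Psmb10, is not printed, and neither gene was among those with a match to the 4 motifs named below. They are the 250 bases before and 50 bases after the RefSeq start site on build GRCm38.p6, read 5′ to 3′ on the gene's strand. Windows were matched for 40 of the 47 genes. Capitals mark every match to 4 motifs searched on both strands: the antioxidant response element written as TGACNNNGC, the CCAAT box written as CCAAT, the interferon-stimulated response element written as GAAA, then 2 bases of any kind, then GAAA, and the STAT site written as TTCNNNGAA.
Psmb5: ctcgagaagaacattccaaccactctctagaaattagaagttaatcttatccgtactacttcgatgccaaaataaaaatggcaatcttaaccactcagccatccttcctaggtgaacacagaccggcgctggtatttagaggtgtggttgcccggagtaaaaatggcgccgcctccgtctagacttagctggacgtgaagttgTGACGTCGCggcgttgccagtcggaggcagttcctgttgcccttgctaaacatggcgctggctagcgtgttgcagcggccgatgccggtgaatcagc
Psmb6: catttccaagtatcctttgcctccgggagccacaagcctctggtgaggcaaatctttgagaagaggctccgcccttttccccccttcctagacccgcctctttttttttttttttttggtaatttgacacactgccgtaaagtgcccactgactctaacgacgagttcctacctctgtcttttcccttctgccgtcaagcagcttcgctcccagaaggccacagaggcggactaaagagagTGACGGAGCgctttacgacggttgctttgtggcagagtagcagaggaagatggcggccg
Psmb8: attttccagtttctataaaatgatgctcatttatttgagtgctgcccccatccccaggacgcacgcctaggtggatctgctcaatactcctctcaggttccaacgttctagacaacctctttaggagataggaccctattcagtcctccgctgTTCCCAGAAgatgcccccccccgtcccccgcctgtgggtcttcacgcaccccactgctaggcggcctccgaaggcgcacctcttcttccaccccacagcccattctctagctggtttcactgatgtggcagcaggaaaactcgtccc
Psmb9: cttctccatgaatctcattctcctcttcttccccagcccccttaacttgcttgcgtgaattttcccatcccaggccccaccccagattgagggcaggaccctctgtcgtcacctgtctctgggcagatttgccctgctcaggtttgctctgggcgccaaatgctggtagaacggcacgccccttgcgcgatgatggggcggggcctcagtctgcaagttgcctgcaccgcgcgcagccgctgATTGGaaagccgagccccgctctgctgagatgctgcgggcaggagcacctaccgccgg

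The Psmb5 window lies on the minus strand at chr14:54617946-54618245 and the Psmb6 window on the plus strand at chr11:70525107-70525406, and each holds 1 match to TGACNNNGC. The Psmb8 window lies on the plus strand at chr17:34197945-34198244 and holds 1 match to TTCNNNGAA. The Psmb9 window, on the minus strand at chr17:34187281-34187580, holds 1 CCAAT match, read as ATTGG on the printed strand, and overlaps the window of Tap1, a divergent neighbour that encodes a subunit of the peptide transporter of antigen presentation. TGACNNNGC was found for 6 of the 40 genes with windows (15%) and in 12.39% of all 32851 RefSeq windows of the same length. A gene counted if any of its windows held the motif, whereas the share of all windows counts each window, so the units differ. The 6 genes were Psmb5, Psmb6, Psmc6, Psmd9, Psmd12 and Psme4, and none of the 5 immunoproteasome genes had it. CCAAT was found for 14 genes (35%, against 37.41% of all windows), and TTCNNNGAA for 3 genes (7.5%, against 8.298%), Psmb8, Psmd2 and Psmg1. The interferon-stimulated response element was found for 5 genes (12.5%, against 3.443% of all windows), of which 1, Psme1, was an immunoproteasome gene and the others were Psmb3, Psmd4, Psmd9 and Psmg4. These matches describe letters and are not binding sites.

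Proteasome genes were for the most part higher in TI-Treg libraries than in spleen Treg libraries. All 47 passed the filter on low values. In the test over all genes 40 were higher in tumor and 1, Psmb11, was lower (limma, Benjamini-Hochberg adjusted p below 0.05), while 43.1% of all genes tested were higher and 35.9% lower. The median difference of the 47 genes was 0.81, with a range from -0.94 to 1.74, beside 0.08 over all genes. For 39 genes each tumor library lay above each spleen library, which held for 35.2% of all genes, and for Psmb11 each tumor library lay below, which held for 28.4%. The 6 genes that did not pass the test were Psmc2, Psmd5, Psme3, Psme4, Psmf1 and Psmg1. Tumor WT replicate 1 was the lowest tumor library for 21 of the 47 genes and tumor KO replicate 2 the highest for 24. For 23 genes the replicate 1 tumor libraries of WT and KO both lay below all other tumor libraries, against 0 to 8 genes for any other pair. In these 2 libraries the summed myeloid level was 13.6 and 13.7, beside 13.9 to 14.1 in the other tumor libraries. Their summed Treg and T cell level was 10.4 and 10.4, beside 9.82 to 10.1. Whether these levels are related to the low values was not tested. Leaving out any 1 library gave 40 to 42 genes called.

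**Figure D1:**
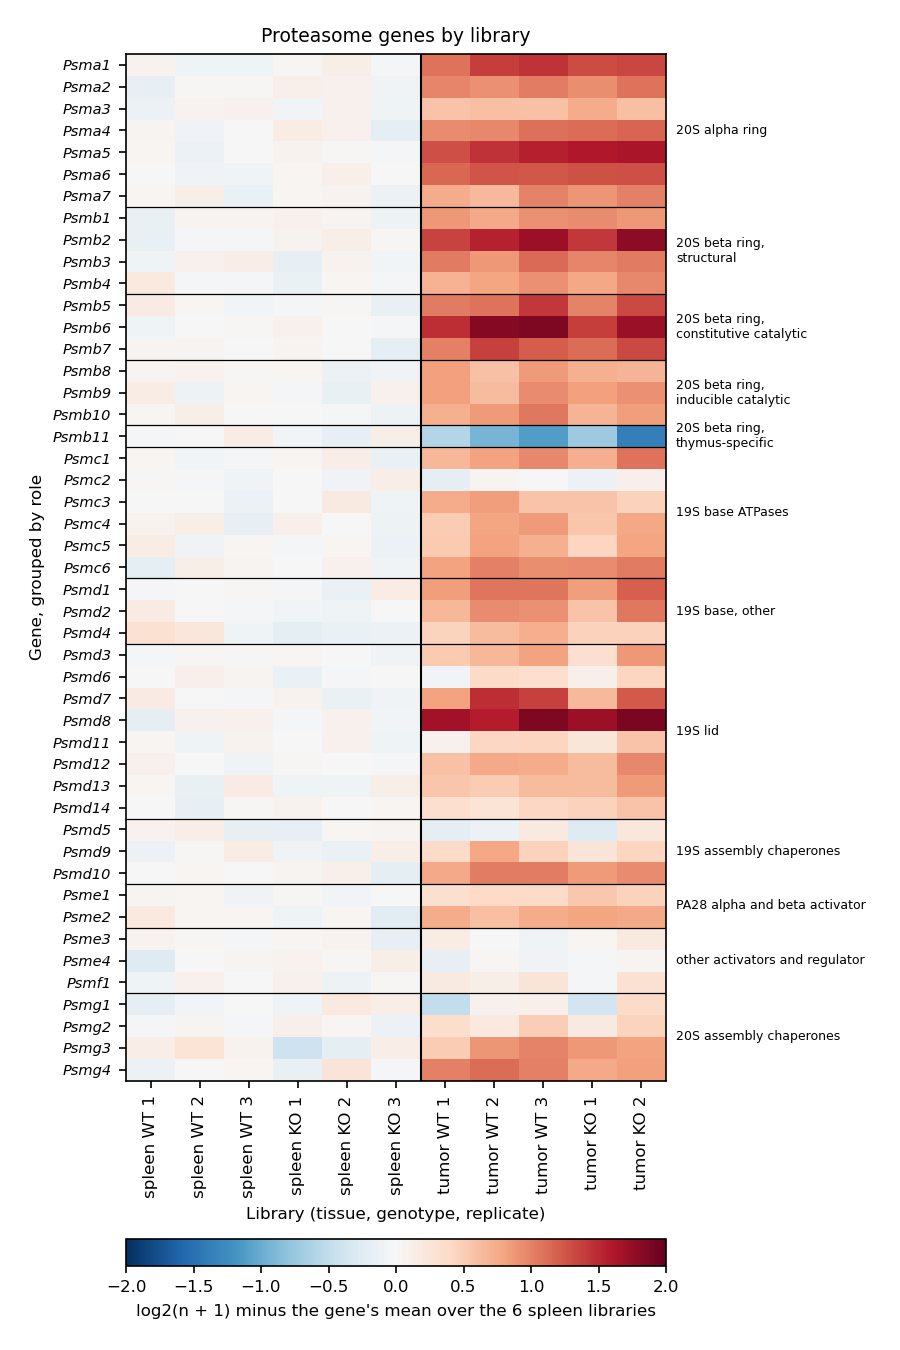
Level of each of the 47 proteasome genes (rows, grouped by role) in each of the 11 libraries (columns), as log2(n + 1) minus the gene's mean over the 6 spleen libraries; red is higher and blue lower. The 5 tumor columns are red in most rows, Psmb6 and Psmd8 are among the darkest, and Psmb11 is blue in each tumor library.

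**Figure D2:**
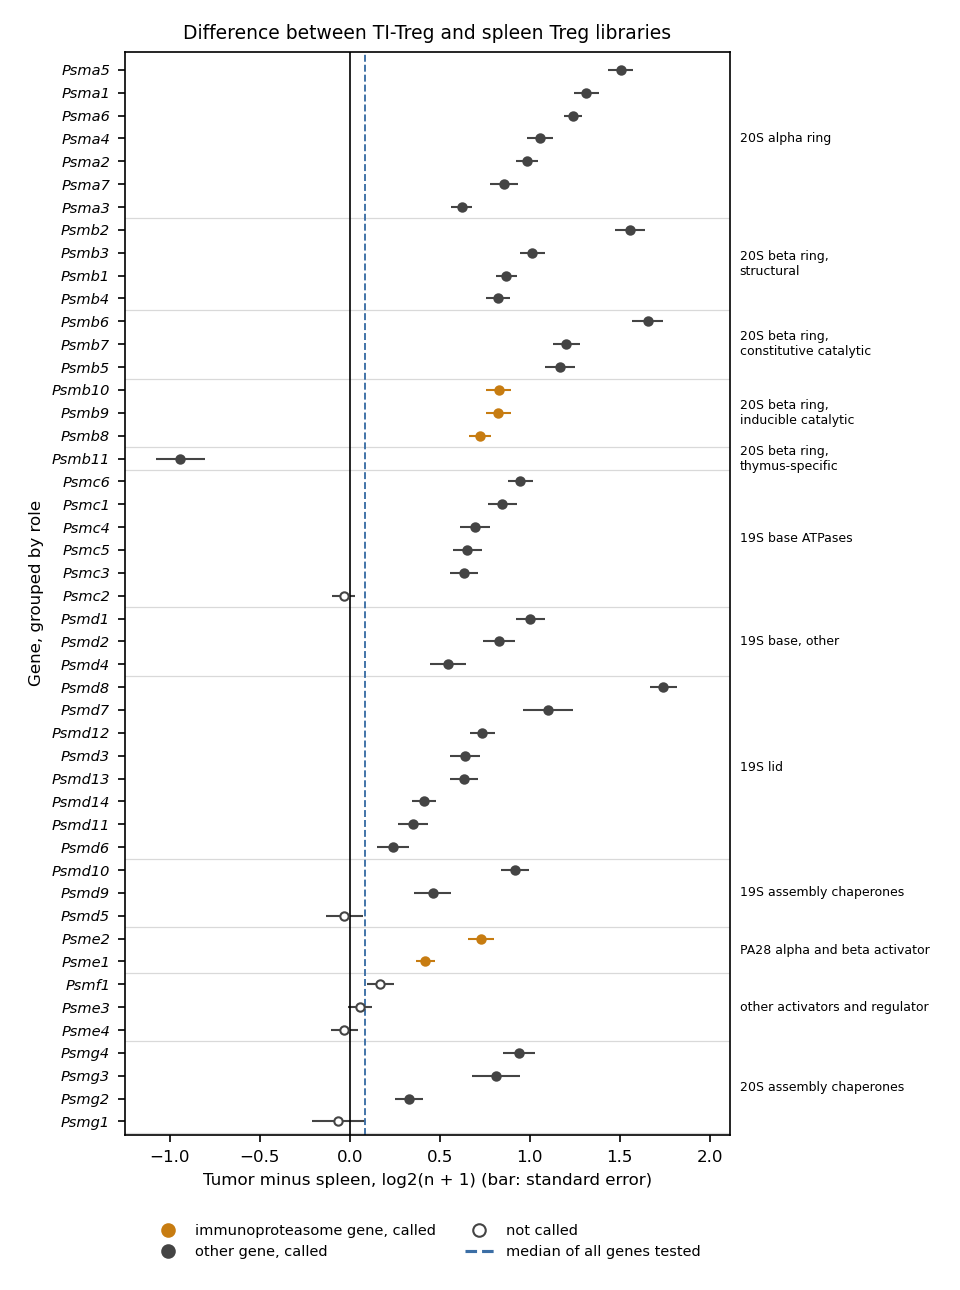
Difference between tumor and spleen for each gene with its standard error (bar), on the log2(n + 1) scale and grouped by role; filled points passed the test, open points did not, and the dashed line is the median of all genes tested, 0.08. The 3 constitutive catalytic genes lie between 1.17 and 1.66, to the right of the 5 immunoproteasome genes, which lie between 0.42 and 0.83.

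The 7 alpha ring genes, whose products form the outer rings and the gate of the 20S core, were all higher in tumor, with a median difference of 1.06. The largest was that of Psma5, whose level had a median of 4.88 in spleen (4.76 to 4.94) and was 6.16, 6.32 and 6.42 in the tumor WT libraries and 6.47 and 6.50 in the tumor KO libraries. The groups did not overlap, and the difference was 1.51 (SE 0.069, limma, adjusted p = 7.35e-10), that is 2.84-fold in n + 1. Psma1 (1.31), Psma6 (1.24), Psma4 (1.06), Psma2 (0.98) and Psma7 (0.86) followed. Psma3 had the smallest difference, 0.62 (SE 0.059), and it was -0.092 after quantile normalization and -0.0022 with equal library totals. It has a listed near copy, the protein-coding gene Gm609 (96.3% identity over 327 bases), whose values are not reported here. Psma4 has a listed near copy, the processed pseudogene Gm6542 (96.8% identity over 783 bases), which moved the other way, from 2.59 to 0.83, and the difference of the summed pair was 0.95.

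The 4 structural genes of the beta ring, which have no known proteolytic site, were all higher as well, with a median difference of 0.94. Psmb2 rose most, from a median of 5.17 in spleen (5.01 to 5.28) to 6.51, 6.70 and 6.87 in tumor WT and 6.58 and 6.95 in tumor KO. Its difference was 1.56 (SE 0.084, limma, adjusted p = 3.03e-09), and the groups did not overlap. Psmb3 (1.01), Psmb1 (0.87) and Psmb4 (0.82) differed less.

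The 3 constitutive catalytic genes had a median difference of 1.20, the highest of the role classes with more than 1 gene. Psmb5, which encodes the chymotrypsin-like subunit, had a median level of 5.50 in spleen (5.36 to 5.66) and levels of 6.54, 6.58 and 6.92 in tumor WT and 6.49 and 6.81 in tumor KO. The tumor libraries all lay above the spleen libraries by more than the spread within either tissue, and the difference was 1.17 (SE 0.086, limma, adjusted p = 5.04e-08). Psmb6, which encodes the caspase-like subunit, had a median of 5.72 in spleen (5.62 to 5.80) and rose to 7.19, 7.55 and 7.58 in tumor WT and to 7.10 and 7.45 in tumor KO. It had the largest difference of the 20S genes, 1.66 (SE 0.087, limma, adjusted p = 2.49e-09), or 3.15-fold in n + 1, and the groups were far apart. Psmb7, which encodes the trypsin-like subunit, rose from a median of 5.57 in spleen (5.35 to 5.59) to 6.54, 6.90 and 6.74 in tumor WT and to 6.65 and 6.86 in tumor KO. Its difference was 1.20 (SE 0.074, limma, adjusted p = 9.93e-09), again without overlap. These 3 genes were higher in tumor under each of the other scalings too, with differences of at least 0.55.

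The 3 inducible catalytic genes were higher in tumor by smaller amounts, with a median difference of 0.83. Psmb8, the inducible counterpart of Psmb5, had a median level of 7.47 in spleen (7.33 to 7.51) and levels of 8.26, 8.03 and 8.29 in tumor WT and 8.15 and 8.12 in tumor KO. The groups did not overlap and the difference was 0.73 (SE 0.062, limma, adjusted p = 2.07e-07), but it was -0.09 after quantile normalization and 0.10 with equal library totals, and neither passed the test. Psmb9, the inducible counterpart of Psmb6, had a median of 6.37 in spleen (6.23 to 6.51) and was 7.19, 6.997 and 7.31 in tumor WT and 7.19 and 7.28 in tumor KO. It lay above the spleen range in every tumor library, with a difference of 0.83 (SE 0.071, limma, adjusted p = 2.41e-07). Psmb10, the inducible counterpart of Psmb7, had a median of 5.78 in spleen (5.69 to 5.90) and was 6.51, 6.64 and 6.85 in tumor WT and 6.47 and 6.63 in tumor KO. It too did not overlap, with a difference of 0.83 (SE 0.071, limma, adjusted p = 2.2e-07). With equal library totals the differences of Psmb9 and Psmb10 were 0.20 and 0.21. Exons of Psmb9 overlap those of Tap1 and exons of Psmb8 those of Gm20496 on the opposite strand. Among the constitutive counterparts, exons of Psmb7 overlap those of Nek6 on the opposite strand and exons of Psmb5 those of Mir686 on the same strand. Further proteasome genes, among them Psma4, Psma5 and Psmd1, also overlap genes on the opposite strand. Whether the counting used strand was not given, so reads of these partners cannot be told apart.

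**Figure D3:**
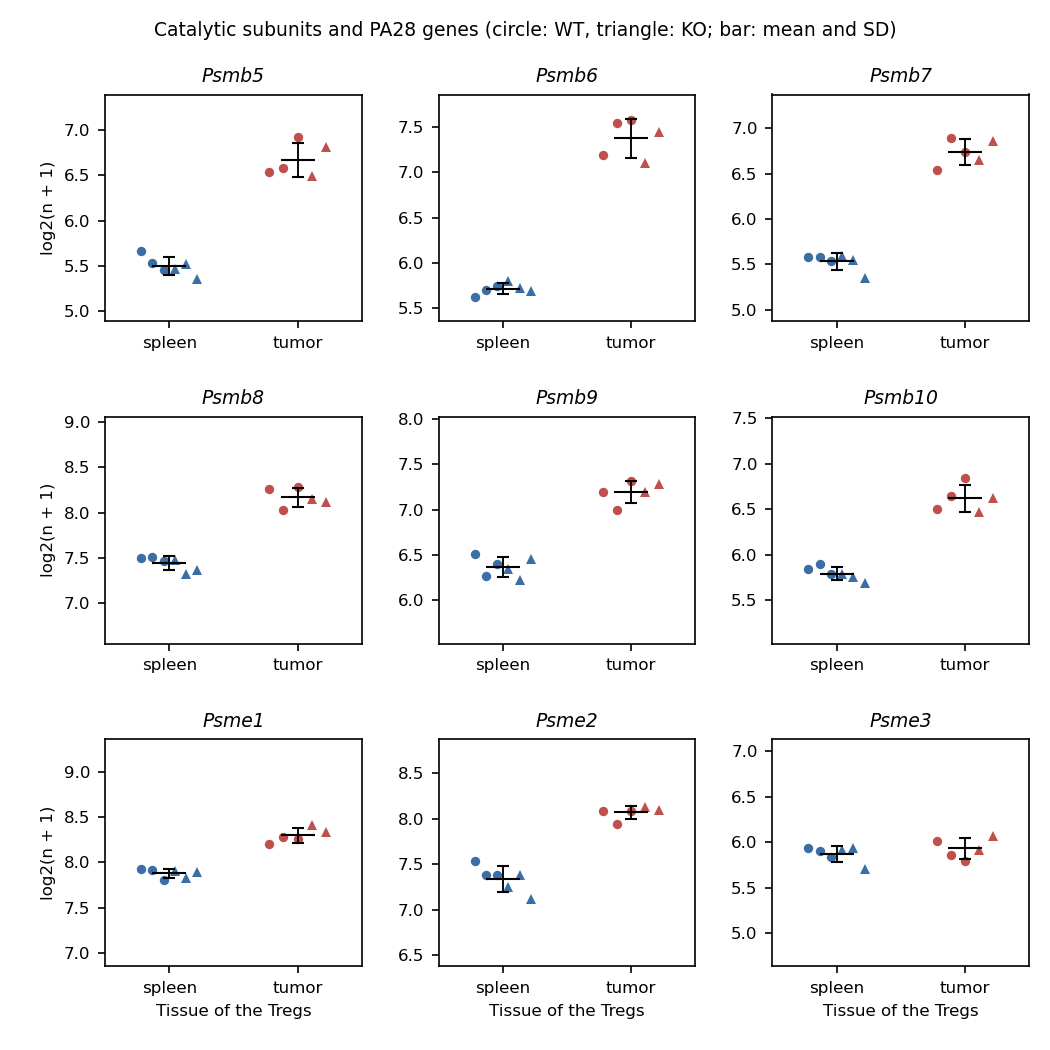
Level, log2(n + 1), of the constitutive catalytic genes (top row), the inducible catalytic genes (middle row) and the PA28 genes (bottom row) in each library, with circles for WT, triangles for KO and the mean and SD of each tissue (6 spleen and 5 tumor libraries); each panel spans 2.5 log2 units. Each of these genes but Psme3 has all 5 tumor libraries above all 6 spleen libraries.

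Each inducible catalytic gene was then set against its constitutive counterpart in the same library, since a scaling factor common to a library largely cancels in such a difference. The absolute value of a difference can depend on the lengths of both transcripts and on the scaling of n, so only its change between tissues was read. The inducible gene lost ground to its counterpart in tumor in all 3 pairs. Psmb8 minus Psmb5 was 1.80 to 2.01 in the spleen libraries, and in tumor it was 1.72, 1.45 and 1.37 in WT and 1.66 and 1.305 in KO. The mean went from 1.94 ± 0.10 (SD, n = 6) to 1.50 ± 0.18 (SD, n = 5), a change of -0.44 (SE 0.086, exact two-sided permutation p = 0.0043, the smallest that 462 divisions of the 11 libraries into 6 and 5 allow). The ranges did not overlap, and the change was -0.85 after quantile normalization. Psmb9 minus Psmb6 was 0.50 to 0.88 in spleen and 0.00, -0.55 and -0.27 in tumor WT and 0.09 and -0.17 in tumor KO. Its mean went from 0.65 ± 0.15 to -0.18 ± 0.25, a change of -0.83 (SE 0.12, exact permutation p = 0.0043), the largest of the 3 pairs, again without overlap. Psmb10 minus Psmb7 was 0.19 to 0.34 in spleen and -0.04, -0.25 and 0.11 in tumor WT and -0.18 and -0.24 in tumor KO, a change of -0.38 (SE 0.068, exact permutation p = 0.0043) without overlap. The change had the same sign within WT libraries (-0.43, -0.98 and -0.33 in the order of the pairs) and within KO libraries (-0.46, -0.64 and -0.45). The p-values of these 3 pairs and of the PA28 pairs below were 5 in all and are not adjusted.

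**Figure D4:**
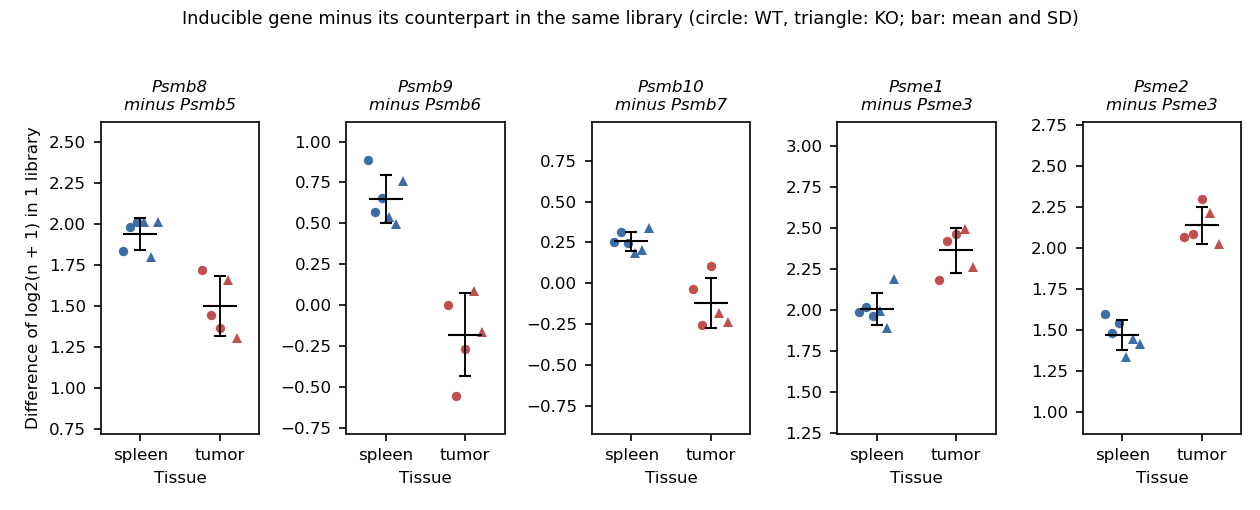
Difference in log2(n + 1) between an inducible gene and its counterpart within 1 library for the 5 pairs, with circles for WT, triangles for KO and the mean and SD of each tissue; each panel spans 1.9 log2 units. The 3 catalytic pairs are lower in tumor without overlap, and the PA28 pairs are higher as deposited, Psme1 minus Psme3 with overlap and with a change of -0.12 after quantile normalization.

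Psmb11, which encodes the catalytic beta subunit of thymic epithelium, was the 1 member that was lower in tumor. Its level was low throughout, with a median of 1.61 in spleen (1.47 to 1.77) and values of 1.05, 0.71 and 0.52 in tumor WT and 0.91 and 0.26 in tumor KO. No tumor library reached the spleen range, and the difference was -0.94 (SE 0.14, limma, adjusted p = 3.09e-05), on a scale that understates changes of genes this low. Stretches of at least 75 bases of its transcripts, the length of 1 read, match transcripts of 291 other listed genes at 90% identity or more, so its count is uncertain. Such matches were also found for Psmd5 (49 listed genes), Psma3 (29), Psma2 (16) and Psmd9 (7).

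The 17 subunit genes of the 19S cap had a median difference of 0.65, beside 1.11 for the 14 constitutive genes of the 20S core, and 16 of them were higher in tumor. Of the 6 base ATPases, which unfold the substrate, 5 were higher, Psmc6 most. Psmc6 had a median level of 5.06 in spleen (4.85 to 5.16) and was 5.85, 6.04 and 5.97 in tumor WT and 5.99 and 6.08 in tumor KO. The groups did not overlap, and the difference was 0.95 (SE 0.069, limma, adjusted p = 4.54e-08). Psmc1 (0.85), Psmc4 (0.69), Psmc5 (0.65) and Psmc3 (0.64) came next. Psmc2 was level with spleen to within the spread of the libraries, at 5.84 to 6.12 in tumor and 5.95 to 6.15 in spleen, with a difference of -0.03 (SE 0.064, limma, adjusted p = 0.64). With equal library totals its difference was -0.65 and passed the test (limma, adjusted p = 1.3e-05), as did -0.26 after median centring and -0.41 after quantile normalization.

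The 3 other base genes, which encode the scaffold subunits and a ubiquitin receptor, were higher, with differences of 1.004 for Psmd1, 0.83 for Psmd2 and 0.55 for the ubiquitin receptor Psmd4. Psmd1 was 4.67 to 4.96 in spleen, and in tumor it was 5.64, 5.88 and 5.87 in WT and 5.64 and 5.999 in KO. The tumor libraries thus lay clear of the spleen range (SE 0.079, limma, adjusted p = 9.64e-08). All 8 lid genes of the 47 passed the test, with a median difference of 0.64. Psmd8, a structural lid subunit, had the largest difference of the 47 genes. Its level had a median of 5.44 in spleen (5.23 to 5.50) and was 7.10, 6.98 and 7.27 in tumor WT and 7.12 and 7.29 in tumor KO. The gap between the groups was many times the spread within them, and the difference was 1.74 (SE 0.074, limma, adjusted p = 3.87e-10), or 3.35-fold in n + 1. Psmd7 (1.10), Psmd12 (0.74), Psmd3 (0.64) and Psmd13 (0.64) were next. Psmd14, which encodes the deubiquitinase of the lid, differed by 0.41, Psmd11 by 0.35 and Psmd6 by 0.24.

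The calls across the cap depended on the scaling. When library totals were set equal, Psmc1, Psmc3, Psmc4, Psmc5, Psmd2, Psmd3, Psmd12 and Psmd13 no longer passed the test, with differences of 0.017 (Psmc3) to 0.24 (Psmc1). Of the 17 cap genes, Psmc6, Psmd1, Psmd7 and Psmd8 were the 4 that still passed as higher. Psmd6, whose groups overlapped, did not pass the test in 4 of the 11 fits that left out 1 library (0.22 without spleen KO replicate 1, 0.21 without tumor WT replicate 2, 0.22 without tumor WT replicate 3 and 0.19 without tumor KO replicate 2). With equal library totals the differences were -0.37 for Psmd6, -0.27 for Psmd11, -0.21 for Psmd14 and -0.07 for Psmd4, while Psmd8 remained higher at 1.12. Psmd11 has a listed near copy, the pseudogene Gm14048 (98.0% identity over 1269 bases), whose level went from 2.09 to 0.97, and the summed pair differed by 0.28.

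The PA28 activator genes, which open the 20S gate and favour peptide products for antigen presentation, were both higher in tumor as deposited. Psme1 had a median level of 7.90 in spleen (7.80 to 7.93) and was 8.20, 8.28 and 8.26 in tumor WT and 8.41 and 8.34 in tumor KO. The groups did not overlap, but the difference of 0.42 (SE 0.053, limma, adjusted p = 9.23e-06) became -0.42 after quantile normalization and -0.21 with equal library totals, both past the test in the other direction. Psme2 had a median of 7.38 in spleen (7.11 to 7.54) and was 8.09, 7.94 and 8.09 in tumor WT and 8.13 and 8.10 in tumor KO. It did not overlap either, and its difference was 0.73 (SE 0.073, limma, adjusted p = 9.49e-07), with -0.07 after quantile normalization and 0.10 with equal library totals.

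Reads of Psme2 can be split with Psme2b, a listed gene that is 99.4% identical to it over 794 bases. Psme2b was lower in tumor, at 5.24 ± 0.35 (SD, n = 5) against 6.48 ± 0.20 (SD, n = 6) in spleen, a difference of -1.24 (limma, adjusted p = 4.65e-06). The sum of both genes was 7.97 ± 0.13 in spleen and 8.26 ± 0.06 in tumor, a difference of 0.29 (exact permutation p = 0.0087), and with equal library totals it was -0.34 (exact permutation p = 0.0043). Exons of Psme1 overlap those of Emc9 on the opposite strand, which leaves its count uncertain in the same way as those of Psmb7, Psmb8 and Psmb9.

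None of the other activator and regulator genes passed the test as deposited. Psme3, which encodes the nuclear activator PA28 gamma, had a median of 5.91 in spleen (5.70 to 5.94) and was 6.02, 5.86 and 5.79 in tumor WT and 5.91 and 6.07 in tumor KO. Tumor and spleen libraries overlapped, and the difference was 0.06 (SE 0.067, limma, adjusted p = 0.43), with values of -0.17, -0.30 and -0.56 after median centring, quantile normalization and equal library totals, each past the test. Psme4, which encodes the activator PA200, differed by -0.03 (SE 0.075, limma, adjusted p = 0.72), and Psmf1, which encodes the inhibitor PI31, by 0.17 (SE 0.075, limma, adjusted p = 0.052). Under the same 3 scalings Psme4 was lower in tumor, with differences of -0.26, -0.32 and -0.64 (limma, adjusted p = 0.0055, 0.0012 and 2.1e-05), and Psmf1 was lower with equal library totals, at -0.43. Without tumor KO replicate 1 the deposited difference of Psmf1 was 0.22 and passed the test, and without spleen WT replicate 2 it was 0.19 and passed.

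Set against Psme3 in the same library, both PA28 alpha and beta genes gained in tumor as deposited. Psme1 minus Psme3 went from 2.01 ± 0.10 (SD, n = 6) to 2.37 ± 0.14 (SD, n = 5), a change of 0.36 (SE 0.071, exact permutation p = 0.0087). The lowest tumor library, at 2.18, lay within the spleen range, and the change was -0.12 after quantile normalization (exact permutation p = 0.13). Psme2 minus Psme3 went from 1.47 ± 0.09 to 2.14 ± 0.11, a change of 0.67 (SE 0.062, exact permutation p = 0.0043) without overlap, and it was 0.24 after quantile normalization (exact permutation p = 0.013). With Psme2b added to Psme2 the change was 0.23 and the groups overlapped.

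The 7 assembly chaperones, which build the core and the base and do not stay in the finished particle, had a median difference of 0.46, and 5 of them were higher in tumor. Psmd10, a chaperone of the base also known as gankyrin, was 3.34 to 3.65 in spleen, and it was 4.30, 4.57 and 4.56 in tumor WT and 4.39 and 4.49 in tumor KO. It did not overlap, with a difference of 0.92 (SE 0.079, limma, adjusted p = 2.33e-07). Psmg4, a chaperone of the 20S core, was 3.99 to 4.40 in spleen, and it was 5.15, 5.26 and 5.15 in tumor WT and 4.89 and 4.97 in tumor KO. Its difference was 0.94 (SE 0.09, limma, adjusted p = 6.45e-07), also without overlap. Psmg3 (0.81), Psmd9 (0.46) and Psmg2 (0.33) were higher too, but with equal library totals Psmd9 was at -0.10 and Psmg2 at -0.26. Psmd5 differed by -0.03 (SE 0.10, limma, adjusted p = 0.80) and Psmg1 by -0.06 (SE 0.15, limma, adjusted p = 0.71). Psmd5 was lower in tumor after median centring (-0.26, limma, adjusted p = 0.026), quantile normalization (-0.27, adjusted p = 0.021) and with equal totals (-0.63, adjusted p = 0.00018), and Psmg1 was lower with equal totals (-0.64, adjusted p = 0.0022). Psmg1 was the most variable of the 47 genes in tumor, at 3.17 and 3.28 in the replicate 1 libraries of WT and KO and at 3.75 to 4.04 in the other tumor libraries.

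How many of these genes counted as higher depended on how the libraries were scaled. As deposited, 40 genes were higher and 1 lower. Setting the library medians equal gave 37 higher and 5 lower (34.6% and 45.1% of all genes), and quantile normalization gave 30 higher and 6 lower (33.3% and 45.8%). Setting the library totals equal gave 20 higher and 12 lower (23.6% and 56.3%). The median of the 47 genes was 0.59, 0.31 and 0.20 in that order and that of all genes -0.14, -0.16 and -0.44. The 47 genes thus lay above all genes by 0.73 as deposited, 0.46 after quantile normalization and 0.64 with equal totals. Median centring shifts all genes of a library alike, so it could not change the 0.73, and equal totals comes close to such a shift. Of the 14 constitutive genes of the 20S core 14, 12 and 12 were higher under the 3 alternatives and 0 lower, and their median with equal totals was 0.49. The 17 genes of the 19S cap gave 4 higher and 4 lower with equal totals, with a median of 0.04. The 5 immunoproteasome genes gave 2 higher (Psmb9 and Psmb10) and 1 lower (Psme1), with a median of 0.10. As deposited, their median minus that of the 14 constitutive core genes averaged 1.47 ± 0.14 over the spleen libraries (SD, n = 6) and 1.04 ± 0.07 over the tumor libraries (SD, n = 5). Set against the median of the other 42 genes, it averaged 1.93 ± 0.12 and 2.02 ± 0.14.

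**Figure D5:**
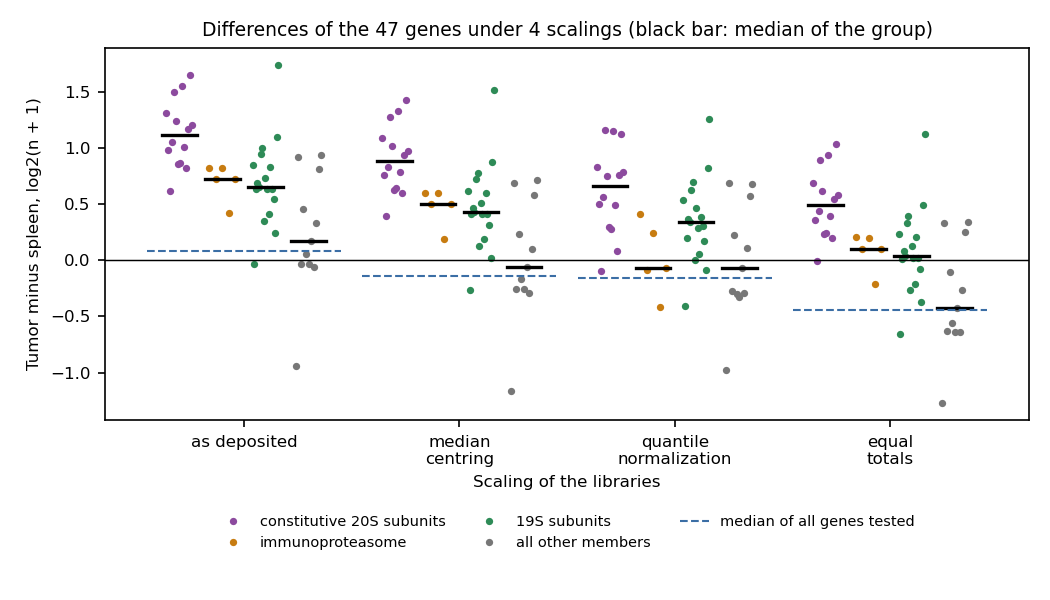
Difference between tumor and spleen on the log2(n + 1) scale for each of the 47 genes (points) under 4 scalings of the libraries, with black bars for group medians and dashed lines for the median of all genes tested. The medians of all groups shift down together from left to right for the deposited, median-centred and equal-totals values. The median of the constitutive 20S genes is the highest of the 4 groups under each scaling, from 1.11 as deposited to 0.49 with equal totals. Median centring shifts all genes of a library alike and cannot change the order of the groups.

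The difference between tumor and spleen was present in both genotypes. In WT libraries 39 genes were higher and 1 lower in tumor (39.2% and 31.3% of all genes), with a median of 0.75, and in KO libraries 37 were higher and 1 lower (36.2% and 29.5%), with a median of 0.81. With equal library totals the counts were 16 higher and 8 lower in WT and 13 higher and 7 lower in KO. Psmd6 passed in neither genotype alone (limma, adjusted p = 0.24 in WT and 0.069 in KO). Psmd9 and Psmg2 passed in WT alone, with differences of 0.52 and 0.35 there and of 0.37 and 0.30 in KO (limma, adjusted p = 0.062 and 0.059 in KO). No difference of the tumor effect between genotypes passed the test for any of the 47 genes, nor did any at an unadjusted p below 0.05, and over all genes 0 passed (0%) and 383 lay below an unadjusted p of 0.05 (limma, 2.76%). The interaction ranged from -0.30 for Psmg4 (SE 0.17) to 0.36 for Psmg3 (SE 0.25).

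Between the genotypes no difference in a proteasome gene was detected within either tissue with these 2 or 3 libraries per group. In spleen 0 of the 47 genes passed, as did 0 of all genes (0%), and 1 gene lay below an unadjusted p of 0.05 where 2.02% of all genes did. That gene, Psmd4, was named here after its values were seen. It was 6.07, 5.99 and 5.68 in spleen WT and 5.56, 5.64 and 5.65 in spleen KO, a difference of -0.30 (SE 0.11, limma, adjusted p = 0.9997, unadjusted p = 0.022). In tumor 0 of the 47 genes passed, whereas 1 of all genes did (0.0072%), and none of the 47 lay below an unadjusted p of 0.05, where 4.56% of all genes did. The differences between KO and WT ranged from -0.32 to 0.17 in spleen and from -0.28 to 0.19 in tumor. For the 5 immunoproteasome genes they ranged from -0.18 (Psme2) to -0.01 in spleen and from -0.12 to 0.13 in tumor.

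Genes that work with the proteasome moved in both directions. Their counts stand beside 43.1% of all genes higher and 35.9% lower as deposited, and 23.6% higher and 56.3% lower with equal totals. Of 20 measured genes for associated factors and regulators 14 were higher and 4 lower in tumor, with a median difference of 0.47. The largest rises were those of Nfe2l1 (1.54), which encodes the transcription factor that restores proteasome genes after inhibition, Sem1 (1.39), a small subunit of the lid, and Pomp (1.33), the maturation factor of the 20S core. Pomp went from 6.10 ± 0.06 (SD, n = 6) to 7.43 ± 0.05 (SD, n = 5). Adrm1, a ubiquitin receptor of the cap, differed by 0.34 as deposited and by -0.27 with equal totals. Lower in tumor were Ngly1 (-0.62), which encodes the deglycosylase that processes the Nfe2l1 product, Fbxo7 (-0.47), the cap-bound deubiquitinase Uchl5 (-0.39) and Ecpas (-0.26). With equal totals 6 genes of this list were higher and 8 lower.

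Of 18 genes for ubiquitin and its activating and conjugating enzymes 13 were higher and 2 lower, with a median of 0.77. The conjugating enzyme gene Ube2c (1.29) and the polyubiquitin gene Ubb (1.22) were among those that rose, and Ube2k (-0.93) and Ube2d1 (-0.23) fell. Of 17 genes that supply peptides to MHC class I or regulate that supply 13 were higher and 2 lower, with a median of 0.56. B2m (1.78), the light chain of class I molecules, the chaperone gene Canx (1.51) and the interferon-gamma receptor gene Ifngr1 (1.44) rose most. The transporter genes differed from one another, with 0.70 for Tap1 and 0.10 for Tap2 (limma, adjusted p = 0.35). With equal totals Tap1 was at 0.075 and did not pass the test, and Tap2 was lower at -0.53 (limma, adjusted p = 0.28 and 0.00019). Among the regulators of the inducible subunits, Irf1 differed by 0.56, which became -0.07 with equal totals. Nlrc5, the transactivator of class I genes, went from 7.32 ± 0.07 (SD, n = 6) to 6.08 ± 0.17 (SD, n = 5), a difference of -1.24 (limma, adjusted p = 8.56e-09), and Irf9 fell as well, with a difference of -0.57. With equal totals the ubiquitin list had 6 higher and 6 lower and the class I list 7 higher and 7 lower.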

How the data were processed

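Tregs sorted from MC38 tumors and spleens gave 11 libraries, single-end reads of 75 bases. Their groups follow the labels for tissue and genotype. With kallisto on mm10, the authors obtained estimated counts, aggregated them by gene symbol in sleuth 0.30.0 and deposited log2(n + 1) values. The kallisto version, the scaling of n and whether reads were counted by strand were not given in the sources used here, and kallisto estimates can split reads between near-identical genes. Since the file holds log2 values, limma 3.58.1 in R 4.3.3, with a trend of variance on mean, was fitted to the 13897 genes with a mean of at least 0.5, which removed 707, and p-values were adjusted over all of them by the Benjamini-Hochberg method. Genotypes were pooled for the main contrast, and all 11 libraries shared the spread in the contrasts within a genotype or tissue. Within-library differences were compared by exact two-sided permutation in SciPy 1.17.1. Scripts were tested on simulated data.

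For the catalytic and PA28 genes each tumor level and the spleen median and range were given, as for some of the others. Others named were, in each role class, the called genes with the largest rise and fall and every gene not called, and in each pathway list up to 3 called genes per direction together with Pomp, Adrm1, Nfe2l1, Tap1, Tap2, Nlrc5 and Irf1; some genes that this rule names are not reported here. The genes and lists were chosen with earlier results of these data known. Near copies were found with BLAST 2.17.0 among GENCODE M21 transcripts (at least 95% identity over at least 300 bases), and start-site windows came from RefSeq. Alternatives were quantile normalization, median centring, equal library totals, pseudocounts of 0.1 and 5, no filter or a filter at 2, no variance trend, a replicate block, genotype as a covariate, only the groups compared, and each library left out. Equal totals without Gm12896 and the sums of near copies were added after the data were seen.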

Additional observations from a re-analysis of the deposited data

Results flagged for a closer look

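In 7 of 104 groups tested (the level of each gene and each within-library difference in 1 tissue) 1 library stood further from the others than Dixon's 95% limit, and chance alone gives about 5.2 such groups. In tumor, Psma3 was at 7.64 in KO replicate 1, above 7.46 to 7.50 in the other libraries. Psma6 was at 6.97 in tumor WT replicate 1, below 7.07 to 7.11. Psme2 was at 7.94 in tumor WT replicate 2, below 8.09 to 8.13. In spleen, Psmb7 was at 5.35 in KO replicate 3, below 5.54 to 5.59, and the same library had Psmd10 at 3.34, below 3.53 to 3.65. Psmd14 was at 5.58 in spleen WT replicate 2, below 5.76 to 5.81. Psme4 was at 4.98 in spleen WT replicate 1, below 5.22 to 5.36. Of these genes all but Psme4 kept their tumor libraries above their spleen libraries.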

How the results depend on the processing

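Of the 47 single-gene results, 21 had the same direction and the same call under all alternatives run and 26 changed under some. Counts of genes called between tissues with genotypes pooled ran from 32 to 42. With equal library totals 24 genes passed in WT and 20 in KO, and counts for the genotype contrasts were 0 throughout. Leaving out 1 library gave changes of -0.50 to -0.39 for Psmb8 minus Psmb5, -0.90 to -0.74 for Psmb9 minus Psmb6, -0.43 to -0.34 for Psmb10 minus Psmb7, 0.33 to 0.41 for Psme1 minus Psme3 and 0.63 to 0.70 for Psme2 minus Psme3. Differences changed sign as follows, and the cause was not tested.

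After quantile normalization the differences were -0.092 for Psma3, -0.089 for Psmb8, -0.083 for Psmd6, -0.42 for Psme1, -0.065 for Psme2, -0.30 for Psme3 and -0.071 for Psmf1, and the change of Psme1 minus Psme3 was -0.12. After median centring they were -0.17 for Psme3 and -0.056 for Psmf1. With equal library totals they were -0.0022 for Psma3, -0.073 for Psmd4, -0.37 for Psmd6, -0.27 for Psmd11, -0.21 for Psmd14, -0.10 for Psmd9, -0.21 for Psme1, -0.56 for Psme3, -0.43 for Psmf1 and -0.26 for Psmg2. Without Gm12896 in those totals they were -0.070 for Psmd4, -0.37 for Psmd6, -0.26 for Psmd11, -0.20 for Psmd14, -0.099 for Psmd9, -0.20 for Psme1, -0.55 for Psme3, -0.42 for Psmf1 and -0.26 for Psmg2. Leaving out 1 library gave -0.066 to 0.0029 for Psmc2, -0.094 to 0.027 for Psmd5, -0.082 to 0.0020 for Psme4 and -0.17 to 0.045 for Psmg1, genes not called in any of these fits. The values above 0 came without tumor WT replicate 1 for each of the 4 and also without tumor KO replicate 1 for Psmd5 and Psmg1.

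Spleens and tumors came from the same mice, but the labels do not say that a replicate number marks a mouse. The deviations of same-numbered libraries correlated at -0.13 to 0.038 and those of differently numbered ones at -0.083 to 0.12. In KO the deviations of the 2 tumor libraries mirror each other, so their correlations say little. With the replicate block 41 genes passed with genotypes pooled, 38 in WT and 37 in KO. Swapping labels within 5 same-numbered pairs gave changes of -0.43 for Psmb8 minus Psmb5, -0.81 for Psmb9 minus Psmb6, -0.36 for Psmb10 minus Psmb7, 0.40 for Psme1 minus Psme3 and 0.66 for Psme2 minus Psme3, each with an exact permutation p of 0.0625, the smallest that 5 pairs allow. The methods of the study give 1 approximate read depth for all libraries alike and none for each library, so the depth behind each n is unknown. The summed n of every library lay far below that approximate depth, and the reason was not given.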
